A study of Mus musculus with 5 samples.

Results

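The nuclear-encoded genes of the mitochondrial respiratory chain were described in sorted mouse mammary luminal cells. The members were taken by symbol alone. They are the rows whose name starts with Nduf (but not Ndufaf, the assembly factors), Uqcr, Cox4, Cox5, Cox6, Cox7, Cox8 or Atp5, together with Sdha, Sdhb, Sdhc, Sdhd and Cyc1. This rule gave 86 of the 24319 genes in the table, of which 38 belong to complex I by their symbol, 4 to complex II, 9 to complex III, 18 to complex IV and 17 to complex V. No row of the table carried the name of a mitochondrially encoded subunit, so the 5 complexes were seen through their nuclear part only.

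The study profiled mammary tumours and luminal cells of a mouse model in which Cre recombinase, driven by the MMTV promoter in mammary epithelium, deletes floxed Brca1. The 5 bulk RNA-seq libraries used here are of luminal cells, the epithelial cells that line the ducts and alveoli, sorted as live CD24-high and CD29-low cells. By the labels, 3 libraries are wild type (wild type 1, 2 and 3) and 2 are Brca1 knockout (knockout 1 and 2), all of mixed strain. The methods describe the sorted luminal cells as coming from females of 3 to 4 months, virgin or pregnant, and do not say which stage gave which library. The paper treats the luminal cells of its bulk comparison as BRCA1-deficient, which the labels give for only 2 of the 5, so libraries are named by their labels throughout. The extraction text of the labels speaks of frozen tumours, whereas the methods describe freshly sorted cells. Nothing states that the libraries came from separate animals, so p-values measure the spread between these libraries, which may be technical.

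The respiratory chain sits in the inner mitochondrial membrane. Complex I (NADH dehydrogenase) and complex II (succinate dehydrogenase) pass electrons to ubiquinone, complex III (cytochrome bc1) passes them on to cytochrome c, and complex IV (cytochrome c oxidase) gives them to oxygen. Complexes I, III and IV pump protons, and complex V (ATP synthase) uses the gradient to make ATP. Most subunits are encoded in the nucleus and a few core ones in mitochondrial DNA. In the mammary gland, mitochondrial ATP supports the synthesis of milk protein, lactose and fat as alveolar cells differentiate.

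The values are FPKM, fragment counts scaled to transcript length and to the number of mapped fragments. Levels may be compared between genes as far as that scaling holds, which was not tested for short transcripts. Read totals are not in the table and the depth is unknown. Between 15464 and 17843 genes were above 0 in a library, the most in wild type 3. The targeted gene did not follow the labels: Brca1 was at 1.198 and 1.34 FPKM in knockout 1 and 2 and at 1.30, 1.32 and 0.234 FPKM in wild type 1, 2 and 3. An FPKM covers the whole gene and does not measure the floxed part by itself. All 5 libraries carried the luminal keratins Krt8, Krt18 and Krt19 with Epcam and Cdh1, whose summed FPKM was 9957 in wild type 3 and 5810 to 6816 in the other libraries, all 5 genes being highest in wild type 3. Wild type 3 stood apart from the other libraries. The summed FPKM of 10 proliferation genes was 4.57 there and 69.8 to 155 elsewhere, all 10 genes being lowest in wild type 3. The 6 mature luminal markers, such as Prlr, Pgr and Areg, summed to 481 against 20.7 to 47.5, all 6 being highest in wild type 3. The 6 luminal progenitor markers were mixed, 3 being highest and 2 lowest in wild type 3. The 7 milk genes summed to 28541 against 68704 to 91288, 6 of the 7 being lowest in wild type 3. Markers of other cell types varied too. The 6 fibroblast markers summed to 109 FPKM in wild type 2, 86.0 in wild type 3 and 2.997 to 12.6 elsewhere. The 6 immune markers had the highest median level in wild type 2 (3.71, log2) and the next highest in wild type 3 (2.68), against 0.60 to 1.07 elsewhere, while by their sum knockout 2 came second through Cd74. The 4 endothelial markers summed to 20.6 FPKM in wild type 3 and 0.771 to 7.76 elsewhere. Their median level was nearly the same in wild type 2 (1.72, log2) and wild type 3 (1.76), and both of the 2 tested were highest in wild type 3. The 8 basal markers summed to 13.7 FPKM in wild type 3 and 44.5 to 140.3 elsewhere. Of the 5 tested, 3 were lowest in wild type 3, 1 in knockout 1 and 1 in knockout 2.

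Nearly all members were expressed. The mean over the 5 libraries was at least 1 FPKM for 81 of the 86, which are the members tested below, and at least 100 FPKM for 40. In every single library, 79 members reached 1 FPKM. The 5 members with a lower mean were Ndufa4l2, Cox4i2, Cox6a2, Cox7b2 and Cox8c, each an isoform or relative of a member that was abundant.

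The complexes differed in level. The median over the members of a complex, on the log2(FPKM + 1) scale, was 7.81 ± 0.23 (SD, n = 5 libraries) for complex V, 7.04 ± 0.31 for complex III, 6.87 ± 0.27 for complex IV, 6.17 ± 0.33 for complex I and 5.85 ± 0.28 for complex II. This order held within each of the 5 libraries. The median of complex IV takes in the isoforms at or near 0. Over members that averaged 5 FPKM or more it was 7.81, beside 7.83 for complex V, so that its place in the order rests on those isoforms. In knockout 1 the medians of complexes III and IV were almost equal, at 138.9 and 138.4 FPKM. In wild type 3 they were 90.5 and 87.8 FPKM.

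**Figure D1:**
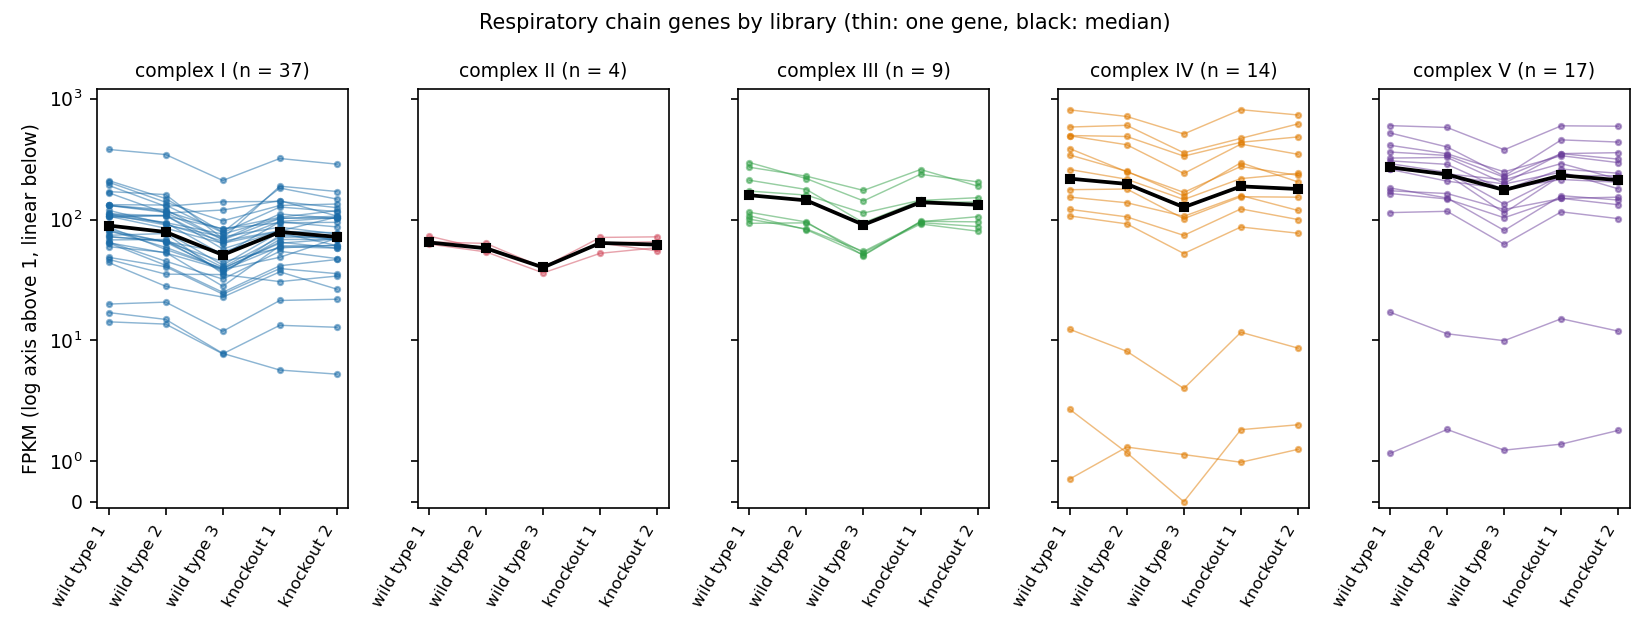
FPKM (vertical axis, logarithmic above 1 and linear below) of the 81 members with a mean of at least 1 FPKM in the 5 libraries (horizontal axis), in 1 panel per complex; each thin line is 1 gene and the black line is the median of the genes drawn. Most lines dip in wild type 3, and the complex II genes lie closest together, between 36.2 and 73.0 FPKM.

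Complex I holds 7 nuclear core subunits, which carry the flavin and the iron-sulphur clusters of the electron path, and many accessory subunits that surround them. The core subunits had lower FPKM than the accessory ones, with a median level of 5.77 ± 0.29 against 6.35 ± 0.33 (log2, SD, n = 5). Their longest annotated transcripts run from 983 (Ndufs7) to 2661 bases (Ndufs1). Many accessory ones are shorter, such as Ndufa1 at 419, though Ndufb2 has 4371. The part of transcript length in these levels was not tested. Ndufs1, the largest iron-sulphur subunit, was the lowest core subunit, at 19.999, 20.7 and 11.9 FPKM in wild type 1, 2 and 3 and at 21.4 and 21.9 FPKM in knockout 1 and 2. Ndufv1, the flavin-binding subunit that accepts electrons from NADH, was at 67.8, 68.5 and 40.3 FPKM in the wild type libraries and at 71.4 and 71.8 FPKM in the knockout libraries. In both of these genes wild type 3 was the lowest library. The core subunits Ndufs3, Ndufs7, Ndufs8 and Ndufv2 lay between 24.2 and 72.5 FPKM, and wild type 3 was lowest in all 4.

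Among the accessory subunits, levels reached from Ndufs5 to Ndufa4. Ndufa4, which was named as a complex I subunit and is now known to belong to complex IV, was at 380, 345 and 210.3 FPKM in wild type 1, 2 and 3 and at 319.6 and 287 FPKM in knockout 1 and 2. Ndufc2, a subunit of the membrane arm, was at 170.2, 161 and 69.7 FPKM in the wild type libraries and at 189 and 170.5 FPKM in the knockout libraries. The value in wild type 3 was 40.9% of the median of the 5 libraries. Ndufs5, an accessory subunit on the intermembrane side, had the lowest mean of complex I apart from Ndufa4l2, through its knockout values, since Ndufa11 was lower in all 3 wild type libraries. It was at 17.0, 14.9 and 7.82 FPKM in the wild type libraries and at 5.69 and 5.27 FPKM in the knockout libraries, so that both knockout libraries lay under all 3 wild type ones. Ndufs5 (GRCm38 chromosome 4, 123712710 to 123718202, minus strand) has 1 annotated pseudogene with at least 95% identity over at least 200 bases, and how reads were shared between them is not given in the sources used here.

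Complex II has 4 subunits, all nuclear, and they were the most even group. Sdha, the flavoprotein that oxidises succinate, was at 64.0, 59.2 and 40.2 FPKM in wild type 1, 2 and 3 and at 71.1 and 71.9 FPKM in knockout 1 and 2. Sdhb, the iron-sulphur subunit, was at 65.3, 63.4 and 40.0 FPKM in the wild type libraries and at 64.0 and 65.5 FPKM in the knockout libraries. The membrane anchors Sdhc and Sdhd lay between 36.2 and 73.0 FPKM. All 4 genes were lowest in wild type 3. Apart from that library, Sdhb kept within 63.4 to 65.5 FPKM, while Sdhc ran from 55.0 to 73.0 FPKM.

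In complex III, Uqcrh, the acidic hinge protein near cytochrome c1, had the highest mean (224 FPKM, beside 219.6 for Uqcr11, which was above it in wild type 1 and knockout 2). It was at 271, 228 and 174 FPKM in wild type 1, 2 and 3 and at 259 and 189 FPKM in knockout 1 and 2. The catalytic subunits were lower. Cyc1 (cytochrome c1) was at 115, 95.4 and 50.4 FPKM in the wild type libraries and at 95.9 and 106 FPKM in the knockout libraries, and Uqcrfs1, the Rieske iron-sulphur protein, at 101, 83.6, 54.4, 94.3 and 87.5 FPKM. The core proteins Uqcrc1 and Uqcrc2 ranged from 50.9 to 107 and from 53.2 to 93.8 FPKM. All 9 members of complex III were lowest in wild type 3, and 8 of the 9 were highest in wild type 1.

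Complex IV held both the most abundant member and the members that were not seen. Cox4i1, the ubiquitous form of subunit 4, lies on the plus strand of GRCm38 chromosome 8 from 120668222 to 120674207. It was at 806, 711 and 509.5 FPKM in wild type 1, 2 and 3 and at 809 and 732 FPKM in knockout 1 and 2, the highest mean of all 86 members at 714 ± 122 FPKM (SD, n = 5). Within complex IV, Cox6a1, Cox8a and Cox6b1 followed, with means of 525 ± 111, 446 ± 66.8 and 383 ± 95.02 FPKM. Several subunits of this complex exist as tissue forms, and the 5 libraries gave a clear order within each pair. Cox4i2, the form known from lung, was at no more than 0.284 FPKM and at 0 in knockout 1. Cox6a2, the heart and muscle form, was at 0.0658 FPKM in wild type 3 and at 0 in the other 4 libraries. Cox6b2, the testis form, lay between 0.563 and 1.31 FPKM, and Cox7b2 and Cox8c were at 0 in all 5 libraries. An exact 0 may stand for few fragments, since the depth is unknown.

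Of the forms known from heart, muscle and brown fat, Cox7a1 was nevertheless seen in all 5 libraries, while Cox8b was low, and at 0 in wild type 3. Cox7a1 was at 12.4, 8.14 and 4.01 FPKM in wild type 1, 2 and 3 and at 11.7 and 8.64 FPKM in knockout 1 and 2. Its ubiquitous counterpart Cox7a2 was at 121, 105 and 73.9 FPKM in the wild type libraries and at 122 and 99.9 FPKM in the knockout libraries, so that Cox7a2 exceeded Cox7a1 by 9.82 to 18.4 times. Cox8b was at 2.70, 1.18 and 0 FPKM in wild type 1, 2 and 3 and at 1.83 and 2.01 FPKM in knockout 1 and 2, against 334 to 495 FPKM for Cox8a. Of 7 markers of brown fat and muscle, Ucp1 reached at most 0.415 FPKM and the myosins Myh1 and Myh2 at most 0.0361 FPKM. Cidea, which is known from brown fat and also from lactating mammary epithelium, was at 28.0, 24.6, 20.6, 13.4 and 11.5 FPKM in wild type 1, 2, 3 and knockout 1, 2. Acta1 ran from 0.755 to 7.72 FPKM and was highest in wild type 3, where Cox7a1 and Cox8b were lowest. The 5 white fat markers summed to no more than 0.871 FPKM in a library, and Lep was at 0 in all 5. The third relative of this group, Cox7a2l, which acts in joining complexes III and IV into supercomplexes, was at 153, 138 and 106 FPKM in the wild type libraries and at 158 and 119 FPKM in the knockout libraries.

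**Figure D2:**
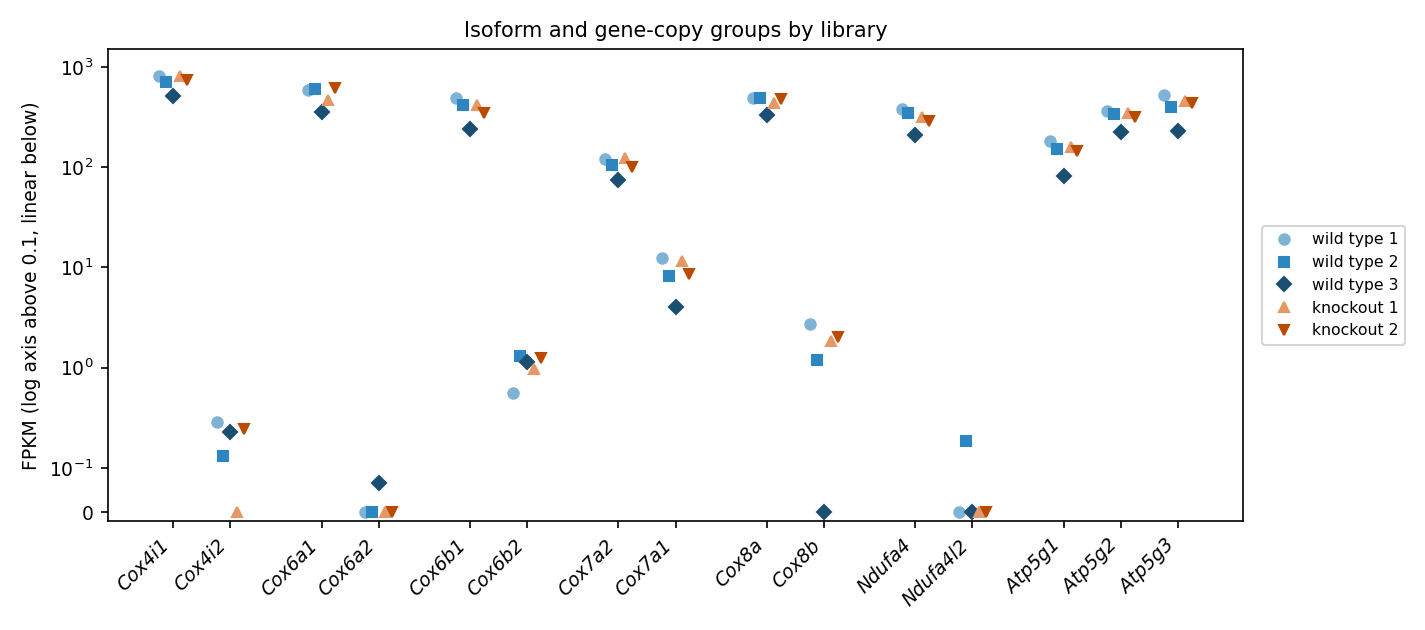
FPKM (vertical axis, logarithmic above 0.1 and linear below) of isoform pairs of complex IV, of Ndufa4 with Ndufa4l2, and of the 3 copies of ATP synthase subunit c; each symbol is 1 library. The ubiquitous forms drawn lie at 73.9 FPKM or more in all 5 libraries, while Cox7a1 is the highest of the tissue forms at 4.01 to 12.4 FPKM.

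Complex V had the highest median level over all its members. Over members that averaged at least 5 FPKM, complex IV was nearly level with it, at 7.81 against 7.83. Atp5b, the catalytic beta subunit, lies on the plus strand of GRCm38 chromosome 10 from 128083273 to 128090391. It was at 598, 577 and 377 FPKM in wild type 1, 2 and 3 and at 596 and 591 FPKM in knockout 1 and 2. Without wild type 3 its values spanned 577 to 598 FPKM. Atp5a1, the alpha subunit, was at 322, 326 and 199 FPKM in the wild type libraries and at 351 and 357 FPKM in the knockout libraries, so that the labels did not overlap. Atp5c1, the gamma subunit that forms the rotating stalk, was lower, at 103 to 164 FPKM. The ratio of Atp5b to Atp5c1 ran from 3.64 to 4.46 over the 5 libraries.

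The ring of subunit c is encoded by 3 genes, Atp5g1, Atp5g2 and Atp5g3, whose mature products are the same and whose leader peptides differ. Atp5g3 gave 46.5% ± 2.6 (SD, n = 5) of their summed FPKM, Atp5g2 37.1% ± 3.1 and Atp5g1 16.4% ± 0.77. Atp5g3 was at 519.8, 398 and 229 FPKM in wild type 1, 2 and 3 and at 456 and 437 FPKM in knockout 1 and 2. In wild type 3 it was nearly level with Atp5g2, the shares being 42.9% and 41.9%, whereas in wild type 1 they were 48.9% and 34.0%. The prefix Atp5 also takes in a pair of genes that are no subunits of the enzyme, Atp5s and Atp5sl, now named Dmac2l and Dmac2. Atp5s was at 1.17 to 1.84 FPKM and Atp5sl at 9.96 to 17.1 FPKM, the lowest members of this group. Usmg5, a subunit of complex V that the prefixes do not catch, was at 271, 261 and 173 FPKM in wild type 1, 2 and 3 and at 216 and 200.4 FPKM in knockout 1 and 2, and the inhibitor of the enzyme, Atpif1, which they also miss, was lower at 46.4 to 69.1 FPKM. Both were named after their values were seen.

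The members shared 1 feature across libraries that the rule did not use. Of the 81 tested members, 74 (91.4%) had their lowest value in wild type 3, against 51.9% of the 11481 genes that averaged 1 FPKM or more. Wild type 1 held the highest value for 61 members (75.3%), against 24.2% of all genes. This was not particular to the members. The same library held the highest value for 85.4% of cytosolic ribosomal proteins, 66.2% of mitochondrial ones and 62.2% of assembly factors tested. The median deviation of the members from their mean over the 5 libraries was 0.29 in wild type 1, 0.10 in wild type 2, -0.55 in wild type 3, 0.12 in knockout 1 and 0.02 in knockout 2 (log2). For all genes tested the deviation in wild type 3 was -0.21, and 72 of the 81 members lay below it. The 3163 genes that averaged 20 FPKM or more gave nearly the same background, at -0.22. That floor does not match them in level to the members, of which 40 averaged at least 100 FPKM. The members' share of the summed FPKM was 2.101%, 2.19% and 1.53% in wild type 1, 2 and 3 and 1.95% and 2.28% in knockout 1 and 2, so that wild type 3 was the lowest here as well.

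The low values in wild type 3 ran through all complexes. The median deviation there was -0.57 for complex I, -0.52 for complex II, -0.59 for complex III, -0.54 for complex IV and -0.48 for complex V. Single members ranged from -1.22 for Cox8b, which was at 0 in this library, to 0.07 for Cox6b2. After Cox8b the lowest were Ndufc2 (-1.03), Cox7a1 (-0.91), Ndufb9 (-0.89) and Atp5o (-0.86), a stalk subunit of complex V. Atp5o was at 262, 236 and 113 FPKM in wild type 1, 2 and 3 and at 231 and 230.2 FPKM in knockout 1 and 2. The 7 tested members that were not lowest in wild type 3 were Ndufa6, Ndufa7, Ndufa13, Ndufs5, Cox6b2, Atp5h and Atp5s. Ndufa7 was at 192, 128 and 140.2 FPKM in the wild type libraries and at 141 and 125 FPKM in the knockout libraries, and its wild type 3 value was the median of the 5. These 7 come from 3 complexes and include both abundant and scarce genes.

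**Figure D3:**
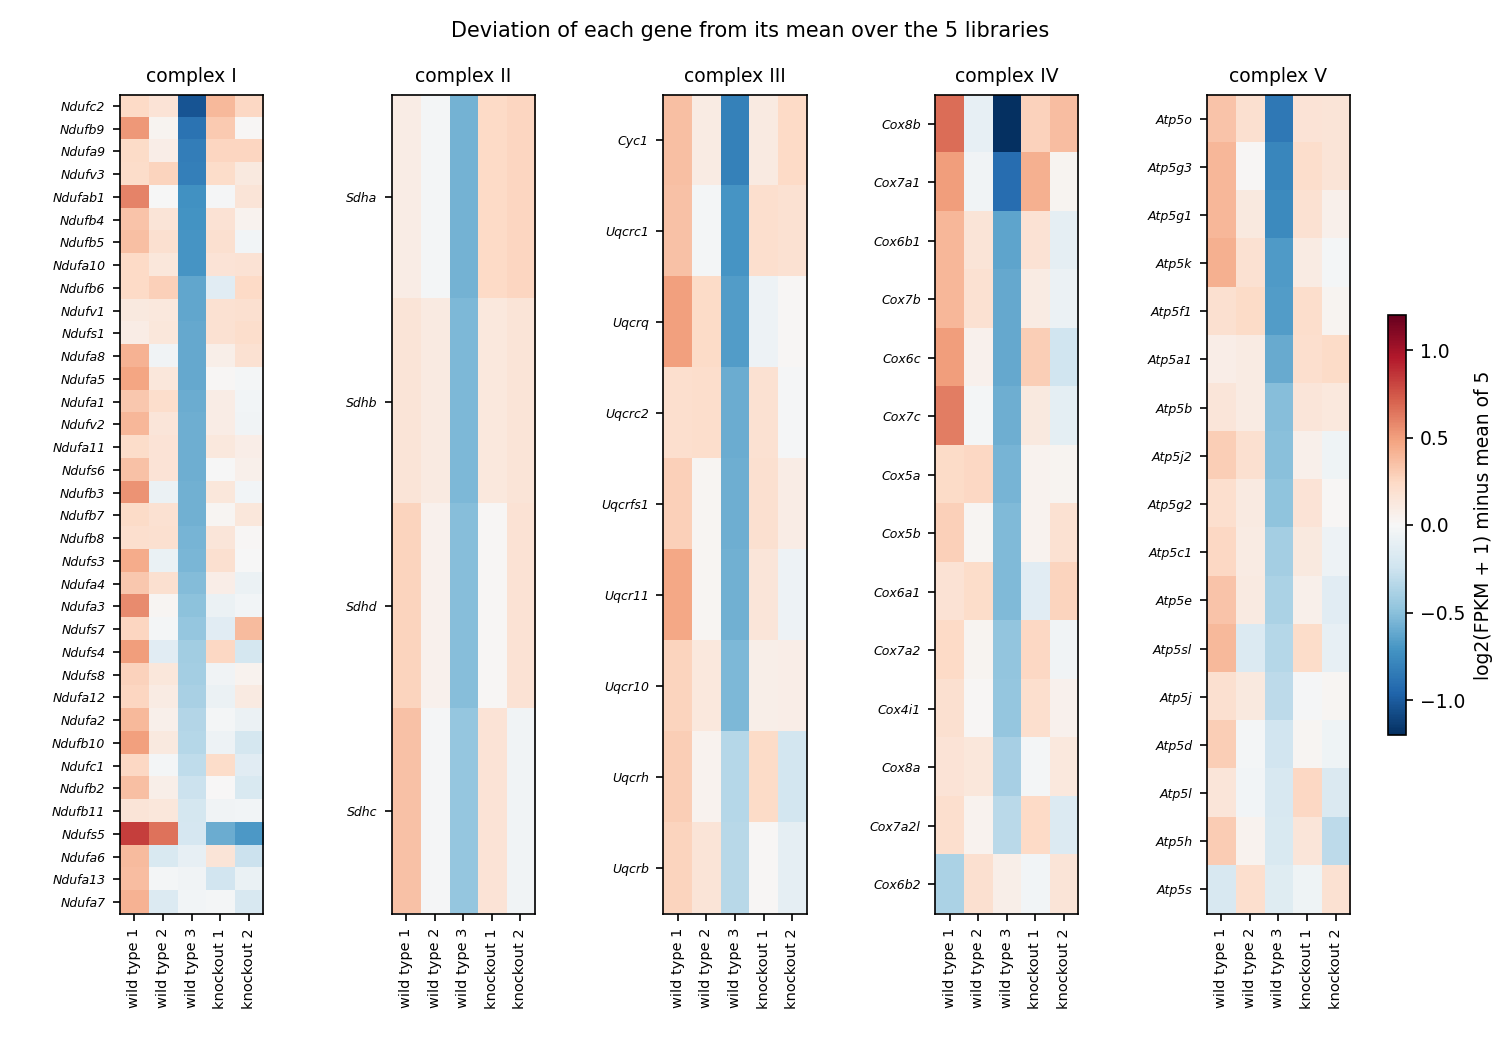
Deviation of each of 80 tested members from its own mean over the 5 libraries (log2(FPKM + 1), colour scale from -1.2 to 1.2; red above the mean and blue below), in 1 panel per complex, with genes sorted by their value in wild type 3. The wild type 3 column is blue for 79 of the 80 genes drawn, and Ndufs5 is the only row in which both knockout libraries are deep blue.

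Scaling changed the size of this difference. When libraries were scaled by median-of-ratios factors, which set the median gene of wild type 3 level with the other libraries (deviation of all genes 0.00), the members still had a median deviation of -0.30 and 58 of the 81 were lowest there, against 32.2% of all genes. Under quantile scaling the members were at -0.52 and all genes at -0.10, and with equal sums apart from the 10 most abundant genes at -0.45 and -0.13. Wild type 3 also differed from the other libraries in mature luminal, milk and proliferation genes and in keratin markers, as given above. It differed in the sums of endothelial and basal markers too. The part of those differences in the members' values was not tested. In bulk RNA, fewer cells that express a gene and less of its RNA per cell cannot be told apart.

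Other mitochondrial genes in lists outside the members gave similar values in wild type 3. The 77 mitochondrial ribosomal proteins, which translate the mitochondrially encoded subunits, had a median deviation of -0.63, and 71 of them were lowest in this library. The 45 tested assembly factors, which build the complexes and insert their cofactors, were at -0.46 with 38 lowest. Sdhaf1, which is needed to mature the iron-sulphur subunit of complex II, was at 24.4, 18.7 and 6.47 FPKM in wild type 1, 2 and 3 and at 21.97 and 28.8 FPKM in knockout 1 and 2. The 15 genes of the mobile electron carriers, cytochrome c and ubiquinone, were at -0.61 with 11 lowest, but Cycs, cytochrome c itself, was at 38.5, 35.8, 32.8, 31.5 and 30.6 FPKM and lowest in knockout 2. The 6 carriers and channels that exchange ADP, ATP and phosphate were at -0.47 with 5 lowest. Slc25a4, an ADP/ATP carrier, was at 118, 118 and 49.9 FPKM in the wild type libraries and at 110 and 107 FPKM in the knockout libraries, whereas the outer membrane channel Vdac1 stayed between 103 and 119 FPKM. The 82 tested cytosolic ribosomal proteins were closer to the background, at -0.29, with 49 lowest in wild type 3.

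Of 12 regulators of mitochondrial genes, 11 were tested, and 8 of these were lowest in wild type 3, with a median deviation of -0.49. Esrra, an orphan nuclear receptor that acts on respiratory chain genes, was at 22.2, 15.8 and 6.84 FPKM in wild type 1, 2 and 3 and at 15.4 and 20.5 FPKM in knockout 1 and 2. Tfb1m and Polrmt, of mitochondrial RNA methylation and transcription, were at 0.971 and 2.70 FPKM in wild type 3 and at no less than 3.04 and 6.18 FPKM elsewhere. Gabpa, the DNA-binding subunit of GABP, was at 5.57 FPKM in wild type 3 against 8.09 to 9.86 FPKM. Nrf1 was not lower in wild type 3, at 7.33 FPKM against 6.44 to 8.17 FPKM, nor was Yy1 by much, at 33.0 FPKM against 34.7 to 40.0 FPKM. Ppargc1a, the coactivator known from muscle and brown fat, was between 0.215 and 0.980 FPKM.

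**Figure D4:**
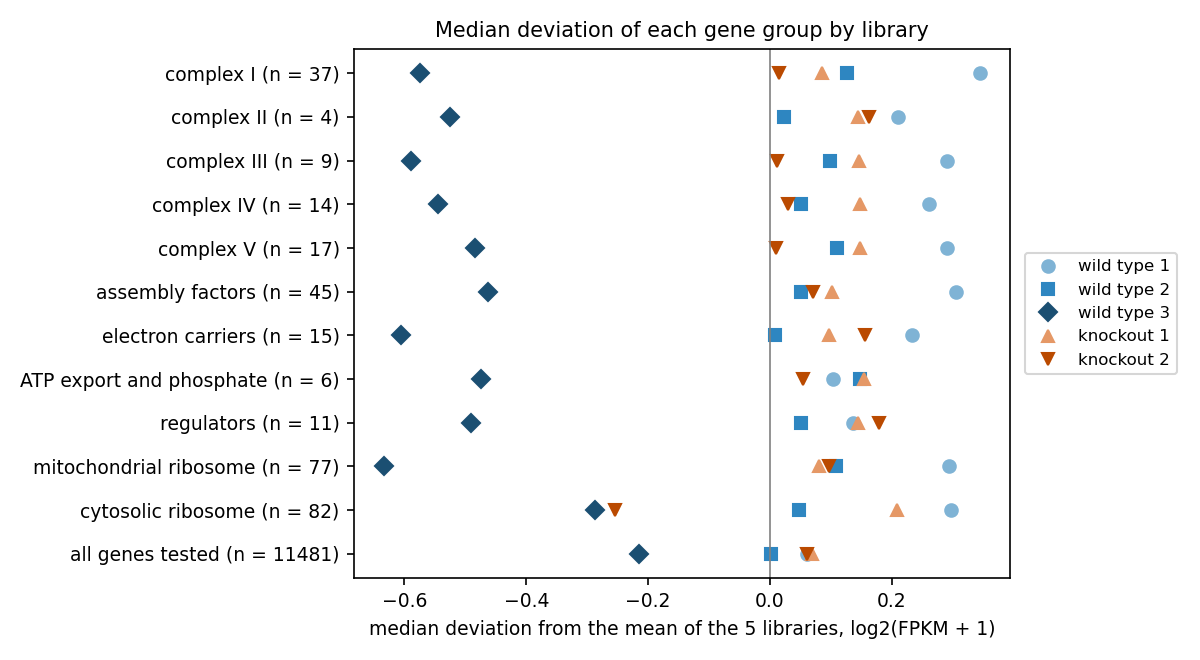
Median over the genes of each group (rows, with the number tested) of the deviation from the mean of the 5 libraries (horizontal axis, log2(FPKM + 1)); each symbol is 1 library. Wild type 3 lies between -0.48 and -0.59 for the 5 complexes and at -0.63 for mitochondrial ribosomal proteins, to the left of the other 4 libraries in each row, though for cytosolic ribosomal proteins knockout 2 (-0.25) is close to it (-0.29).

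The promoters of the members were searched for letters bound by 3 regulators of mitochondrial genes. RefSeq windows on build GRCm38.p6, from 250 bases before to 50 after the start of a gene, were at hand for 70 of the 86 members. On either strand, GCGCATGCG (NRF1 type) was in 8 of the 70 (11.4%), CCGGAAG (ETS type, to which GABP belongs) in 16 (22.9%) and AAGATGGCG (YY1 type) in 8 (11.4%). Among the 8604 tested genes with a window the shares were 4.22%, 21% and 3.85%, and among all 27025 genes with a window they were 1.95%, 9.93% and 1.64%. At least 1 of the 3 was in 27 members (38.6%) and in 27% of the tested genes. Of the mitochondrial ribosomal proteins, 68 had a window, and 10.3%, 36.8% and 11.8% held the 3 motifs. For 64 cytosolic ribosomal proteins the shares were 4.69%, 39.1% and 6.25%, and for 40 assembly factors 7.5%, 40% and 7.5%. At least 1 motif was in 51.5%, 50% and 52.5% of these groups, in that order, which is above the share of the members. A match is a description of the letters and not a site shown to be bound. The sequences below, 1 match or more for each complex, show where such letters lie ahead of the start. All are given 5′ to 3′ on the strand of the gene, outside annotated exons, with the match or its reverse complement in capitals.
Ndufa11 (complex I, NRF1 type, chr17:56717692-56717720, plus strand): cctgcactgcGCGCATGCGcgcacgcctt
Sdhd (complex II, ETS type, chr9:50603879-50603905, minus strand): cgtctcctgcCTTCCGGttcacgcttc
Uqcr11 (complex III, ETS type, chr10:80406871-80406897, minus strand): tctctcctccCCGGAAGtagatgtcaa
Cox6a1 (complex IV, NRF1 type, chr5:115349101-115349129, minus strand): aggaacggggCGCATGCGCgctctcgctc
Atp5l (complex V, NRF1 type, chr9:44920965-44920992, minus strand): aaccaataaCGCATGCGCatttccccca
Atp5l (complex V, ETS type, chr9:44920938-44920964, minus strand): cttcaccgatCTTCCGGaccaacatga
The matches end between 39 bases (Sdhd) and 232 bases (Atp5l) before the start. In Ndufa11 and Cox6a1 the NRF1 type letters are found on both strands, overlapping by all but 1 base, and such a pair was counted as 1 gene. Of the genes printed, Sdhd was at 36.2 FPKM in wild type 3 and at 52.6 to 62.7 FPKM elsewhere, and Uqcr11 at 143 against 205 to 296 FPKM. Ndufa11 was at 7.75 against 12.9 to 14.3 FPKM, and Cox6a1 at 356 against 469 to 617 FPKM. Atp5l differed less, at 213 against 216 to 290.3 FPKM. Members with and without a match were not compared, and any part of these letters in the values was not tested.

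The labels define a single contrast, Brca1 knockout against wild type, and no member passed it. With limma and Benjamini-Hochberg adjustment over 11481 genes, 0 of 81 members and 0 of all genes (0%) had an adjusted p under 0.05, and limma without a trend also gave 0. At an unadjusted p under 0.05 there was 1 member and 3.24% of all genes (372). That member was Ndufs5, with a log2 difference of -1.07 (SE 0.35, unadjusted p = 0.024, adjusted p = 0.92). The lowest adjusted p of any member was also 0.92. Values that did not overlap between the labels were higher in both knockout libraries for 6 members (Ndufa9, Ndufc2, Ndufs1, Ndufv1, Sdha and Atp5a1), against 17.5% of all genes, and lower for 2 (Ndufa13 and Ndufs5), against 5.77% of all genes. Both counts, read over 81 members, are shares below the background.

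The direction and size of the small differences depended on single libraries and on the scaling. With all 5 libraries, 65 members were higher and 16 lower in the knockout, with a median log2 difference of 0.10, beside 0.11 for all genes. Under median-of-ratios scaling 34 were higher and 47 lower, with a median of -0.03. Without wild type 3, 15 were higher and 66 lower, with a median of -0.13 beside 0.03 for all genes, and 50 members changed sign. Without wild type 1, 74 were higher and 7 lower, with a median of 0.28 beside 0.17 for all genes. The median was 0.17 without wild type 2, 0.06 without knockout 1 and 0.16 without knockout 2, beside 0.13, 0.10 and 0.11 for all genes. By complex, leaving out wild type 3 moved the median from 0.08 to -0.16 for complex I, from 0.19 to -0.03 for complex II, from 0.13 to -0.12 for complex III, from 0.09 to -0.09 for complex IV and from 0.10 to -0.11 for complex V. Without wild type 3, again 1 member had an unadjusted p under 0.05, against 6.98% of genes, and it was Ndufs5, with a log2 difference of -1.39 (adjusted p = 0.68). Among members named for the largest difference in their complex, Ndufc2 went from 0.53 (SE 0.43) to 0.12 and Cox8b from 0.54 (SE 0.58) to 0.04. Sdha went from 0.41 (SE 0.25) to 0.21, and Atp5a1 from 0.36 (SE 0.28) to 0.13. The values of Sdha did not overlap between the labels with all 5 libraries, so leaving out wild type 3 could not make them overlap. Its adjusted p from limma without wild type 3 was 0.75.

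**Figure D5:**
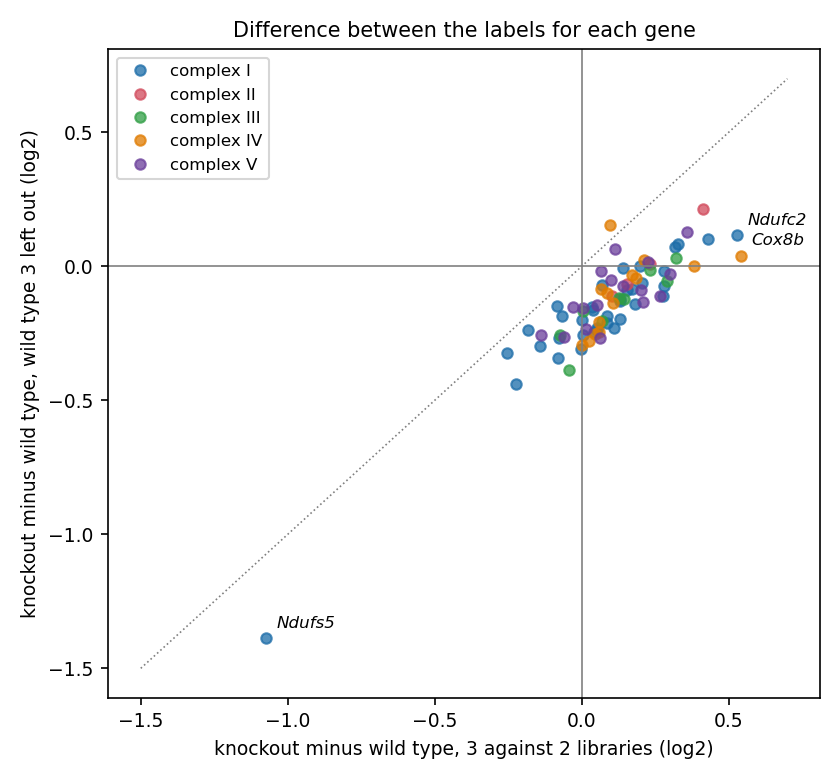
Log2 difference between the labels for the 81 tested members, knockout minus wild type, with all 5 libraries (horizontal axis) and without wild type 3 (vertical axis); points are genes coloured by complex and the dotted line marks equal values. Most points lie below the dotted line and 50 fall in quadrants of opposite sign, while Ndufs5 stays at -1.07 and -1.39.

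The spread between libraries was smaller without wild type 3, the lowest library for 74 of the 81 tested members. A drop follows in part from setting that library aside, and no SD without another library is given. The median SD of a member over the 5 libraries was 0.34 (log2), beside 0.30 for all genes, and over the remaining 4 it was 0.16, beside 0.20. The complex II genes had the smallest median SD without wild type 3, at 0.12, and those of complex IV the largest, at 0.19.

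Some features of the genes limit how far single values can be read. The 86 members lie on 19 chromosomes, 10 of them on chromosome 7 and 3 on the X. A search of their longest transcripts against annotated pseudogenes found a copy with at least 90% identity over at least 200 bases for 29 members, and at least 95% for 19. Atp5l had the most, with 13 copies. The 29 members with a copy had a median deviation of -0.53 in wild type 3 and the 52 without one -0.56. Short transcripts gave a similar result, with -0.53 for the 45 tested members under 1000 bases and -0.56 for the 36 longer ones, beside -0.24 and -0.21 for all genes of those lengths. For 30 members an annotated gene on the opposite strand overlaps the locus, such as Emc8 at Cox4i1, and whether strand was used in quantification is not given in the sources used here.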

How the data were processed

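RNA-seq libraries of sorted luminal cells were prepared by the authors with the NEBNext Ultra kit and sequenced as paired ends. Per the labels, the submitters' processing notes name Trimmomatic 0.35, TopHat2 2.0.13, Cufflinks 2.2.1 and mm10, while the methods name another TopHat release. The annotation is not given in the sources used here. The deposited FPKM values, made by the authors with Cufflinks, were used as they stand. Of 24346 rows, 27 carried spreadsheet dates in place of gene names (25 distinct) and were left out. No other column of values was present, and no pair of libraries was identical.

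Levels were analysed as log2(FPKM + 1), which understates the change of low genes. The labels were compared with limma 3.58.1 (lmFit, eBayes with trend; R 4.3.3) on the 11481 genes that averaged 1 FPKM or more, with Benjamini-Hochberg adjustment at 0.05. The fit was tested on simulated data. Lists were described by counts and medians, with no test of their own. The members, lists, contrast and alternatives were chosen with earlier results of these data known. Genes named are core subunits, isoform groups, members that are no subunits, and in each complex those with the highest and lowest level, the largest difference in each direction and the largest SD (47 members); others were added after their values were seen. The values of 1 of these members are not reported here, though it is counted in the sums and medians. Alternatives were another pseudocount (0.1), other filters (none, or a mean of at least 5 FPKM), median-of-ratios, quantile and equal-sum scaling, limma without trend, and each library left out. Coordinates are from GENCODE M21 (GRCm38, which is mm10) and promoters from RefSeq (GRCm38.p6); 70 of 86 members matched by symbol or synonym. FPKM cannot be turned back into counts here, so precision is given by the spread of 5 libraries only. Python 3.11.15, numpy 2.4.6, pandas 2.3.3 and matplotlib 3.10.9 were used.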

Additional observations from a re-analysis of the deposited data

Results flagged for a closer look

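For 47 values (the median level of each complex and the levels of 42 named members with a mean of at least 1 FPKM), the gap between the lowest or highest library and its nearest neighbour was compared with the range over the 5 libraries, on the log2(FPKM + 1) scale. In 13 of the 47 it exceeded the critical share of 0.71, and in all 13 the library set apart was wild type 3, at the low end. Chance gives about 1 in 20 such values when they are independent, which genes of 1 library are not. Some named members were also picked for their SD or difference over these same libraries, which can favour such gaps. The complex medians are made of members as well, so the 13 cannot be judged against that rate. Without such picking, 23 of the 81 tested members and 1491 of the 11481 tested genes exceeded 0.71 at either end. Over all tested members wild type 3 was set apart at the low end in 22 of 81 (27.2%), against 7.39% of all tested genes.

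The median level of complex II was 5.36 (log2) in wild type 3, and its subunit Sdhb was at 40.0 FPKM. In complex I the values set apart were those of Ndufs1 (11.9 FPKM), Ndufv1 (40.3 FPKM) and Ndufc2 (69.7 FPKM). In complex III they were those of Cyc1 (50.4 FPKM) and Uqcrc2 (53.2 FPKM), and in complex IV that of Cox4i1 (509.5 FPKM). In complex V the values were 199 FPKM for Atp5a1, 377 FPKM for Atp5b, 81.2 FPKM for Atp5g1, 224 FPKM for Atp5g2 and 113 FPKM for Atp5o. The same library had the lowest summed level of proliferation genes (4.57 FPKM) and the highest of mature luminal markers (481 FPKM), and the part of either in these values was not tested.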

How the results depend on the processing

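No member was called under any of the 12 alternatives run. Over all genes, the number called moved from 0 to between 0 and 14 when 1 library was left out (2 without wild type 1, 14 without knockout 1, 4 without knockout 2), where a label with 1 library is assumed to vary like the other. The median level of complex IV moved from 6.87 to 7.15 when only members above 0 entered and to 7.81 with a mean of at least 5 FPKM, because fewer low isoforms are counted. The median log2 differences of the 5 complexes, above 0 as reported, were all below 0 without wild type 3, between -0.16 and -0.03. Under median-of-ratios scaling they were -0.05, 0.06, -0.01, -0.04 and -0.03 for complexes I to V. Without wild type 1 they were between 0.26 and 0.34. Of the 42 named members tested, 23 changed sign without wild type 3 and 12 under median-of-ratios scaling, and none of them passed the threshold in either. Across the alternatives the lowest adjusted p of a member ranged from 0.62 (Cox7a1, without wild type 1) to 1.0. No paired analysis was possible because the replicate numbers follow the order of deposit and pair no libraries. Depth is unknown, so values under about 1 FPKM and exact zeros cannot be given a limit.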

Other observations

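Some rows outside the comparisons also set wild type 3 apart, and were chosen after their values were seen. Mir6236 was at 37870 FPKM in wild type 3, against 2702 to 9324 FPKM in the other libraries, and Mir6240 at 17474 FPKM against 2299 to 3522 FPKM. Of the 45 tested assembly factors, 1 had an unadjusted p under 0.05 from limma, beside 3.24% of all genes. It was Cox17, a copper chaperone of complex IV, at 64.1, 51.6 and 52.5 FPKM in wild type 1, 2 and 3 and at 32.4 and 39.2 FPKM in knockout 1 and 2 (log2 difference -0.63, unadjusted p = 0.022 from limma, which did not pass the adjusted threshold). Of the 45 in the list, 6 genes were higher and 3 lower in both knockout libraries without overlap, beside 17.5% and 5.77% of all genes.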
